A study of Mus musculus with 141 samples.

Results

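The comparison described here is between inguinal white adipose tissue (iWAT) libraries with high and with low expression of *Saa3*, the serum amyloid A gene of the acute phase that mouse adipose tissue and macrophages express. The members were chosen by the value of *Saa3* itself. Within each sex, libraries were ranked by *Saa3* in TPM, the length-corrected share of a library's transcripts, and divided into 4 rank groups of near-equal size, of which the highest and the lowest were compared. This gave 34 libraries with high *Saa3* (16 female, 18 male) and 34 with low *Saa3* (16 female, 18 male), so 68 of the libraries of the series, which holds 67 female and 74 male ones. The other 70 ranked libraries lie between the 2 groups, and 3 libraries (BXD34/TyJ female, BXD69/RwwJ female and NZW/LacJ male) were left out by the rule that set the groups.

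The mice were adult inbred and recombinant inbred strains of the HMDP, the Hybrid Mouse Diversity Panel. One strain, BXD24/TyJ-Cep290<rd16>/J, is labelled with the rd16 allele of *Cep290*. Its female (70.5 TPM of *Saa3*) and its male (173 TPM) were both in the high group. By the study's methods they were raised on chow, then fed a diet rich in fat and sucrose (HF/HS), and fasted briefly before collection. High and low groups therefore share the diet, and they differ in most of their strains. MA/MyJ, AXB12/PgnJ, AXB19b/PgnJ and I/LnJ had a library in each group. Each library carries 1 mouse number, and 16 strains had both a female and a male library in the comparison. No chow-fed group is part of these data, and body weight and fat mass are not in the labels.

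Serum amyloid A proteins are secreted during the acute phase, travel with high-density lipoprotein and act on innate immune cells through receptors such as Fpr2 and Tlr2. In the mouse, *Saa1* and *Saa2* are mainly hepatic, whereas *Saa3* is made outside the liver. In expanding fat, macrophages surround dying adipocytes, take up lipid and switch on lysosomal and matrix-degrading enzymes, while adipocytes secrete leptin and haptoglobin and can lower their own lipid synthesis.

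In short, libraries with high *Saa3* had more haptoglobin, lipopolysaccharide binding protein, leptin, monocyte chemoattractants, lipid-associated macrophage genes and extracellular matrix genes. They had less of the enzymes of de novo lipogenesis, by a smaller median when *Saa3* was ranked by counts or when the mitochondrial share was a term. Nuclear and mitochondrially encoded genes of oxidative phosphorylation (OXPHOS) were lower as well. In males alone fewer lipogenesis and nuclear OXPHOS genes were called lower than in females alone. Ranking by counts left few of the nuclear genes lower but most of the mitochondrially encoded ones, and with the mitochondrial share as a term none of either was lower. Genes of IL-6 and NF-kB signalling showed no common direction.

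*Saa3* (ENSMUSG00000040026) lies on the minus strand of chromosome 7 at chr7:46711998-46715700 (GRCm38), in a cluster with *Saa4* (46727998-46732603), *Saa1* (46740497-46742980) and *Saa2* (46751790-46754313). Its promoter is printed because the groups were chosen on this gene, with those of *Ptx3* and *Steap4*, the acute-phase genes called higher whose promoters matched the most motifs. Each holds 250 bases before and 50 after the RefSeq start (GRCm38.p6), at chr7:46715627-46715926 (minus), chr3:66219637-66219936 (plus) and chr5:7960222-7960521 (plus). Capitals mark matches to the NF-kB consensus, the C/EBP motif TTGCNNAA and the STAT motif TTCNNNGAA on either strand.
Saa3: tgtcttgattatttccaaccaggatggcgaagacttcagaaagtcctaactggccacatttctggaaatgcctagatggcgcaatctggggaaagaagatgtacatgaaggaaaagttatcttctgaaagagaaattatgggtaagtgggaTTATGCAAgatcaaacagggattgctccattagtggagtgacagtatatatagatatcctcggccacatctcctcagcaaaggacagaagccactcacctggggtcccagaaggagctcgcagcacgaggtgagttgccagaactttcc
Ptx3: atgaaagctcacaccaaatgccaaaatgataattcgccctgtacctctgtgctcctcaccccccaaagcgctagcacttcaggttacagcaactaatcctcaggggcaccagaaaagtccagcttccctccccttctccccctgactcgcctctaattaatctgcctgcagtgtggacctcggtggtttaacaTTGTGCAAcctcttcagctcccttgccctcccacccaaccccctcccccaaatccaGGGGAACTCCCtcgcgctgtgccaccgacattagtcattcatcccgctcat
Steap4: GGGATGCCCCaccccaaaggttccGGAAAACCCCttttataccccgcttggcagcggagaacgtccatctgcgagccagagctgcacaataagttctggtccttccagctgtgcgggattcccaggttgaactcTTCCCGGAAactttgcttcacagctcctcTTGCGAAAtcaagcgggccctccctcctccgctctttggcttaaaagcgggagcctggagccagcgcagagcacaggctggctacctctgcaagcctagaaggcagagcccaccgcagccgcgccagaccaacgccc

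The *Saa3* promoter held 1 C/EBP match, which began 99 bases before the start, and no NF-kB or STAT match in these letters. *Ptx3* held a C/EBP match 57 bases before the start and 2 overlapping NF-kB matches at the start itself. *Steap4* held 1 C/EBP match at 87 bases, 1 STAT match farther upstream and 2 NF-kB matches at 226 and 250 bases before the start. Of the 10 acute-phase genes called higher, 7 were matched to 9 promoters in the RefSeq table, and *Hp*, *Lbp* and *Cfb* were not. A C/EBP match was found in 4 of the 7 genes (*Mt2*, *Ptx3*, *Hpx* and *Steap4*), an NF-kB match in 2 and a STAT match in 1. Among 32851 mouse promoters of the same length, 10.8% held the C/EBP motif, 4.51% the NF-kB consensus and 8.30% the STAT motif. A match is a description of letters and not a binding site.

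*Saa3* ranged over 3 orders of magnitude. In the 16 low female libraries it lay between 1.12 and 2.79 TPM (median 2.20), and in the 16 high female libraries between 20.9 and 1677 TPM (median 46.3). In the 18 low male libraries it lay between 1.87 and 8.26 TPM (median 3.68), and in the 18 high male libraries between 58.2 and 258 TPM (median 113.5). The 65 ranked females had a median of 6.48 TPM and the 73 ranked males one of 21.3 TPM, so a male library needed more *Saa3* than a female one to enter the high group. These values fixed the groups and are given without a test.

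**Figure D1:**
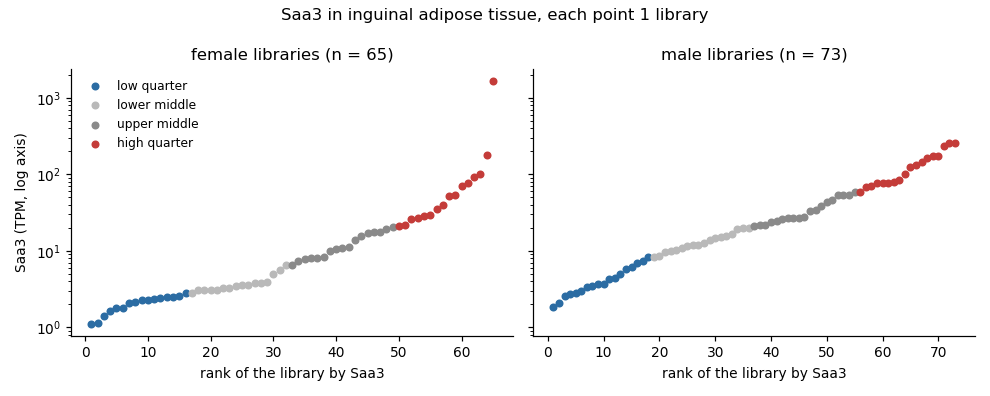
*Saa3* in TPM (log axis) for each ranked library against its rank, females on the left (n = 65) and males on the right (n = 73), coloured by rank group within the sex. Values rise without a gap at either boundary, and a single female library at 1677 TPM stands above all others.

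The boundaries of the groups fell inside a continuous range. The last low female library was BXD43/RwwJ at 2.79 TPM and the next one outside was C57BLKS/J at 2.83 TPM. The first high female library was NZW/LacJ at 20.9 TPM, next to BXD84/RwwJ at 20.8 TPM outside. In males the last low library was BXD55/RwwJ at 8.26 TPM against C57BLKS/J at 8.29 TPM outside, and the first high library was MA/MyJ at 58.2 TPM against AXB19/PgnJ at 58.05 TPM outside.

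TPM and counts did not move in proportion for *Saa3*. The estimated count had a median of 82.5 in the low group (51 to 160) and of 735 in the high group (180 to 16127). The TPM obtained per unit of CPM, the count scaled to library size without regard to length, had a median of 0.840 in low females and 3.22 in high females, and of 1.60 in low males and 3.45 in high males. The annotation holds 3 *Saa3* transcripts, of 494, 555 and 2200 bases, and TPM divides by length. How reads were split between them was not tested. Ranking by CPM kept 31 of the 34 high libraries but 26 of the 34 low ones.

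The rank of a strain was shared by the sexes only in part. Over 58 strains with both libraries, log2(TPM + 1) of *Saa3* in the female and the male had Pearson's r = 0.24 (permutation p = 0.068, two-sided) and Spearman's rho = 0.36 (permutation p = 0.0059). Without the 2 strains whose female value lay farthest from the median, r was 0.45 (permutation p = 5.2e-04). Within the 26 BXD strains r was 0.68 (permutation p = 1.6e-04, 3.2e-04 adjusted over 2 subsets) and rho was 0.66 (p = 3.9e-04 and 7.8e-04). In the 32 other strains r was 0.03 (permutation p = 0.87, 0.87 adjusted) and rho was 0.18 (p = 0.33 and 0.33). The difference between the 2 subsets was not tested.

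**Figure D2:**
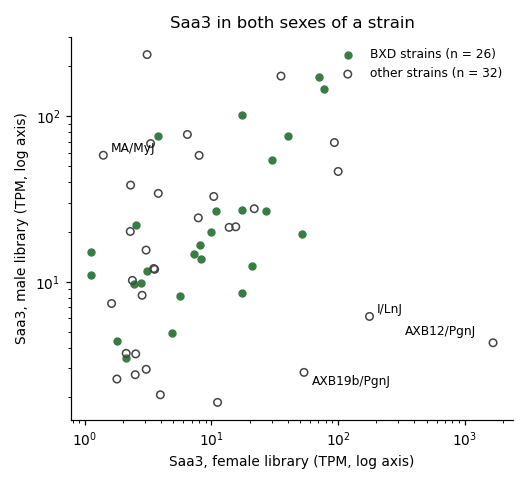
*Saa3* in TPM (both axes logarithmic) in the male library of a strain against its female library for 58 strains, BXD strains filled (n = 26) and other strains open (n = 32). Named are the 4 strains whose sexes fell in opposite groups, and AXB12/PgnJ lies far to the right at 1677 TPM.

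Of the 16 strains with both libraries in the comparison, 7 were low in both sexes and 5 were high in both. A/J, BALB/cJ and CXB11/HiAJ were among the former, and BXA2/PgnJ, BXA8/PgnJ and BXD60/RwwJ among the latter. In AXB12/PgnJ, AXB19b/PgnJ and I/LnJ the female was high and the male low, and in MA/MyJ the female was low and the male high. C57BL/6J was high in the male (236 TPM) and between the groups in the female (3.10 TPM).

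The groups did not differ detectably in depth, with 30649100 estimated counts per library ± 4611200 (SD, n = 34) in the high and 32366500 ± 9070390 (SD, n = 34) in the low group (permutation within sex, two-sided p = 0.38, 0.46 adjusted over 3 measures). BXD strains made up 17 of 34 high and 13 of 34 low libraries (Fisher's exact p = 0.46, 0.46 adjusted). Mitochondrially encoded genes took 7.37% ± 2.61 (SD, n = 34) of the counts in the high and 12.5% ± 4.85 (SD, n = 34) in the low group. These means differed (permutation within sex, p = 1e-05, the smallest that 100000 resamples give, and 3e-05 adjusted). The ranges overlapped, from 3.99% to 19.9% in the high and from 7.39% to 25.8% in the low group. TPM is a share of 1 total, so the amount of mitochondrial RNA enters the TPM of every other gene, *Saa3* included. Ranked by TPM without mitochondrially encoded genes, 31 of 34 high and 31 of 34 low libraries stayed in their group. The part of this in the difference was not tested.

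Among the 17528 genes tested besides *Saa3*, 3226 (18.4%) were higher and 3169 (18.1%) lower in high-*Saa3* libraries at an adjusted p under 0.05 (edgeR quasi-likelihood test with sex in the model, Benjamini-Hochberg adjustment). The median log2 fold change (log2FC) over all genes was -0.02. Counts of called genes in the lists below are to be read against the 18.4% and 18.1% of all genes. On log2(TPM + 1) the same libraries gave 7414 higher and 598 lower with a median of 0.17, so directions below are relative to the TMM scaling of the counts. In females alone, 1300 of 16482 genes (7.89%) were higher and 736 (4.47%) lower. In males alone, 1948 of 16042 (12.1%) were higher and 2338 (14.6%) lower. Of the genes higher in either sex, 881 were higher in both, which is 67.8% of the female and 45.2% of the male list. Of the lower genes, 399 were shared, which is 54.2% of the female and 17.1% of the male list. The sexes share strains, so these are separate mice but not unrelated genotypes.

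The 70 libraries between the groups gave a comparison in mice that the groups did not use. There the slope of each gene on log2(*Saa3* TPM + 1) was tested with sex in the model. It was positive for 578 of 16779 genes (3.44%) and negative for 327 (1.95%) at an adjusted p under 0.05. Of the genes with a positive slope 510 (88.2%) were also higher in the high group, and of those with a negative slope 266 (81.3%) were also lower. Of 3164 genes higher in the high group and tested for the slope, 2974 had a slope of the same sign. Among all 16776 genes tested in both, 13060 (77.8%) had the same sign. Some of the 70 libraries come from strains that also lie in the high or the low group, such as C57BL/6J. The mice are separate, but the genotypes are not all unrelated.

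**Figure D3:**
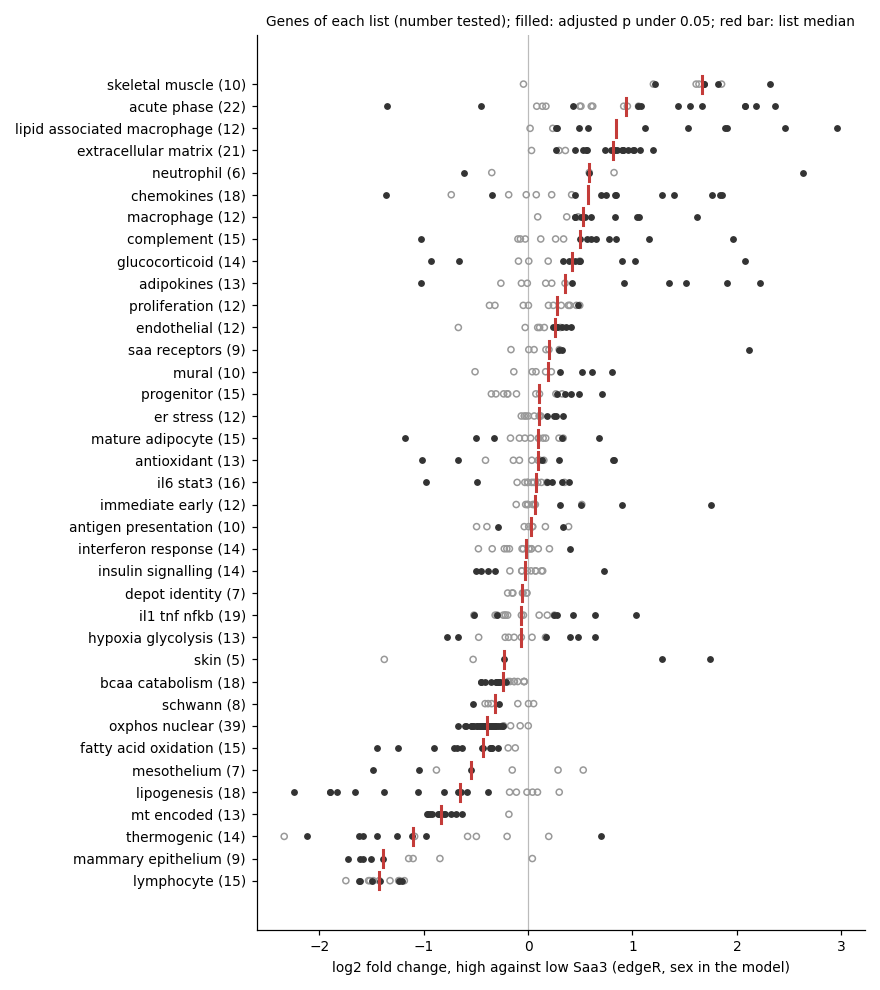
Log2FC (high against low *Saa3*, edgeR with sex in the model) of every tested gene in 37 gene lists, with the number tested in brackets, filled points for an adjusted p under 0.05 and a red bar at the list median. Matrix and lipid-associated macrophage genes lie to the right, and lipogenic, mitochondrially encoded and nuclear OXPHOS genes to the left.

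Of the 22 tested acute-phase genes, 10 were higher and 2 lower, with a median log2FC of 0.93 against -0.02 over all genes. Haptoglobin (*Hp*), which binds free haemoglobin, had the smallest p of all genes. In females it lay between 101.2 and 627 CPM in the low group (median 227) and between 199 and 3793 CPM in the high group (median 892). In males it lay between 266 and 1197 CPM (median 577) and between 1012 and 6157 CPM (median 2465). Of the 34 high libraries 29 exceeded every low library of their sex, and the log2FC was 2.19 ± 0.19 (SE, adjusted p = 8.8e-14). Its slope in the 70 other libraries was 0.37 per doubling of *Saa3* (edgeR adjusted p = 0.020).

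*Lbp*, which hands bacterial lipopolysaccharide to its receptor complex, ran from a median of 32.6 to 213 CPM in females and from 78.7 to 294 CPM in males. The high male libraries started at 141.99 CPM while the low ones reached 184 CPM, so the male groups overlapped only at their edges. The log2FC was 2.08 ± 0.24 (edgeR adjusted p = 5.3e-10). The alternative complement factor *Cfb* (log2FC 1.08) and the protease inhibitor *Serpina3n* (1.44) were also higher in 33 of 34 high libraries than the low median of their sex. The IL-1 receptor antagonist *Il1rn* (1.55), the haem carrier *Hpx* (2.36), the pentraxin *Ptx3* (1.67) and the metalloreductase *Steap4* (0.43) were called higher too. The metallothioneins *Mt2* (log2FC 2.08) and *Mt1* (1.05) had larger values in males (3.07 and 1.71) than in females (0.93 and 0.29), but the interaction with sex did not pass the test (edgeR adjusted p = 0.062 and 0.13).

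The acute-phase list did not move as a block. *Orm3* (log2FC -1.35) and the copper oxidase *Cp* (-0.45) were lower. *Lcn2*, a siderophore-binding protein, had a log2FC of 0.50 ± 0.34 (edgeR adjusted p = 0.25) and the central complement gene *C3* one of 0.17 ± 0.17 (p = 0.45). *Orm1* stood at 0.08 ± 0.18 (p = 0.75).

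The other serum amyloid genes had medians under 1 TPM in both groups, with single libraries far above them. *Saa1* had a median of 0.226 TPM in the low and 0.582 TPM in the high group, with 1 library (BXD56/RwwJ female) at 155 TPM and the next highest at 14.3 TPM. Its log2FC of 1.06 ± 0.68 did not pass the test (edgeR adjusted p = 0.22). *Saa4* had medians of 0.250 and 0.278 TPM and reached 9.15 TPM in a low and 8.16 TPM in a high library (edgeR adjusted p = 0.25). *Saa2* was not tested after the filter on low counts and had medians of 0.0909 and 0.473 TPM, with a value of 0 in 13 low and 7 high libraries. It reached 65.7 TPM in the same BXD56/RwwJ female, and 5.92 TPM in the next highest library. *Saa1* and *Saa2* are near-identical in sequence, so reads may be split between them.

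Of the 9 tested genes for serum amyloid receptors and their adaptors, 3 were higher and none lower. The scavenger receptor *Cd36* had a log2FC of 0.33 ± 0.13 (edgeR adjusted p = 0.045) and the purinergic receptor *P2rx7* one of 0.30 ± 0.10 (p = 0.012). Neither of these 2 was called with the 3 left-out libraries put back, nor with depth and mitochondrial share as terms. *Fpr2*, the formyl peptide receptor of neutrophils and macrophages, had 2.11 ± 0.57 (p = 0.0027). Its medians hardly differed, with 0.431 and 0.537 CPM in low and high females, and 18 of 34 high libraries exceeded the low median of their sex. The AXB12/PgnJ female had 113.6 CPM, and without that library *Fpr2* did not pass the test. *Tlr2* (0.30, p = 0.12), *Tlr4* (0.17, p = 0.093) and *Scarb1* (0.20, p = 0.099) did not pass it.

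Genes of cytokine signalling had no common direction. Of 16 tested genes of the IL-6 and STAT3 pathway, 4 were higher and 2 lower (median log2FC 0.08), a share near that of all genes. The receptors *Osmr* (0.33) and *Lifr* (0.23), *Stat3* (0.18) and *Cebpd* (0.39), which encodes a C/EBP factor, were higher, and *Pim1* (-0.49) and the cytokine *Osm* (-0.97) were lower. *Lifr*, *Stat3* and *Cebpd* were not called with the 3 left-out libraries put back, nor with *Saa3* ranked by CPM. With depth and mitochondrial share as terms, *Lifr*, *Stat3*, *Cebpd* and *Pim1* were not called. The feedback inhibitor *Socs3* had 0.09 ± 0.21 (edgeR adjusted p = 0.76), and *Il6* itself was not tested after the filter.

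Of 19 genes of the IL-1, TNF and NF-kB pathway, 5 were higher and 2 lower (median -0.06), together a share near that of all genes. *Tnfrsf1a* (0.27), *Il1r1* (0.25), *Tnfaip2* (0.65) and *Tnfaip6* (0.43) were higher, and the NF-kB subunit gene *Nfkb1* (-0.30) and the inhibitor of apoptosis *Birc3* (-0.52) lower. *Tnf* had -0.52 ± 0.30 (edgeR adjusted p = 0.17). *Il1b* was called at 1.03 ± 0.40 (p = 0.037), but only 13 of 34 high libraries exceeded the low median of their sex, and the AXB12/PgnJ female had 38.8 CPM against at most 1.75 CPM in low females. Without that library its log2FC was -0.15, and the pathway had 4 genes higher and 7 lower.

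Of 18 tested chemokine genes 10 were higher and 2 lower (median 0.58). Without the AXB12/PgnJ female 8 were higher and 2 lower with a median of 0.30, and in males alone the median was 0.21. *Ccl2*, the main attractant of monocytes, lay between 0.802 and 4.54 CPM in low females and between 4.11 and 37.95 CPM in high females. In males the ranges were 1.79 to 12.6 CPM and 5.55 to 48.6 CPM. The female groups met only between 4.11 and 4.54 CPM, and all 34 high libraries exceeded the low median of their sex. The log2FC was 1.84 ± 0.20 (edgeR adjusted p = 2.4e-10), and the slope in the other 70 libraries was 0.58 (p = 0.0014). *Ccl7* (1.86), another monocyte attractant, *Ccl9* (1.40) and the neutrophil attractant *Cxcl2* (1.77) were higher as well, the last with no median above 1.03 CPM in either group of either sex. The slope was positive and called for 5 of the 18.

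Macrophage genes were higher without exception in direction. Of 12 general macrophage genes 9 were higher and none lower (median 0.53), and of 12 lipid-associated macrophage genes 10 were higher and none lower (median 0.84). Among the former were the integrins *Itgax* (log2FC 1.62) and *Itgam* (0.83), the scavenger receptor *Cd68* (1.07) and *Adgre1* (1.04), which encodes F4/80. The AXB12/PgnJ female ranked 1 of 65 females for each of them, with 172.7 CPM of *Itgax* against a female median of 14.9 CPM. Without that library each kept its direction and call. Among the latter was *Mmp12*, macrophage elastase, with medians of 5.16 and 57.1 CPM in low and high females and of 17.3 and 138.4 CPM in males. Its log2FC was 2.96 ± 0.33 (edgeR adjusted p = 3.9e-10). *Trem2* (1.89), the lipid-sensing receptor, *Lgals3* (1.53), galectin-3, and the lysosomal protease *Ctsl* (1.12) were also higher. In the 70 other libraries, 3 general and 5 lipid-associated macrophage genes had a positive slope. The summed general markers ran from 336 to 2417 CPM in the low and from 469 to 5924 CPM in the high group, where males reached at most 2001 CPM. In bulk tissue, fewer cells of a type and less RNA per cell cannot be told apart.

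The largest log2FC of all named genes was that of *Itgad*, which encodes the CD11d integrin of tissue macrophages. It lay between 0.133 and 2.81 CPM in low females (median 0.370) and between 0.240 and 68.7 CPM in high females (median 9.21). In males it lay between 0.125 and 5.67 CPM (median 0.655) and between 1.48 and 260 CPM (median 45.7). The log2FC was 5.24 ± 0.46 (edgeR adjusted p = 2.1e-13), and 26 of 34 high libraries exceeded every low library of their sex. The median over the 4 rank groups, from low to high *Saa3*, was 0.527, 1.28, 7.68 and 13.04 CPM. *Dcstamp*, needed for the fusion of macrophages into giant cells, had 2.50 ± 0.25 (p = 2.3e-11).

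**Figure D4:**
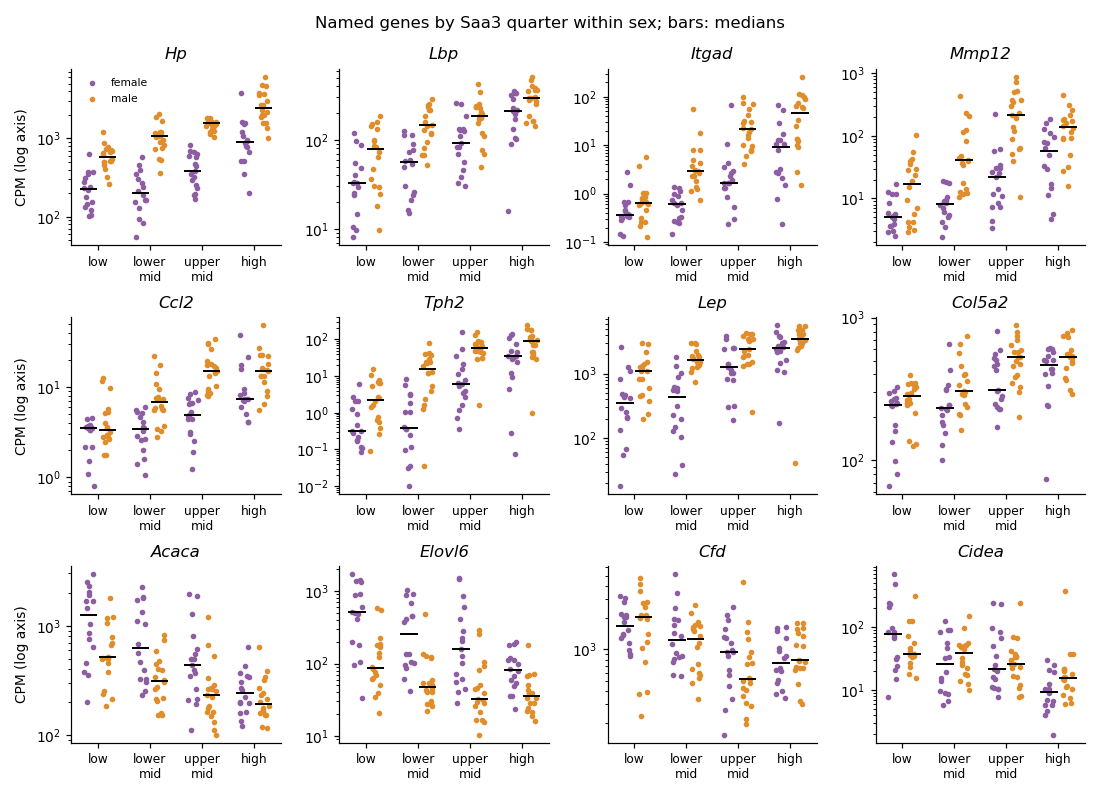
CPM (log axis, values under 0.01 drawn at 0.01) of 12 genes in each ranked library by rank group of *Saa3* within sex, females purple and males orange, with black bars at the medians. *Itgad* and *Tph2* climb by over 1 order of magnitude between the lowest and the highest rank group, while *Acaca*, *Elovl6* and *Cfd* fall.

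Neutrophil and lymphocyte genes differed from this. Of 6 tested neutrophil genes 2 were higher and 1 lower, and *Ly6g* was at 0 in the median library. *S100a8*, a subunit of calprotectin, was higher in all 34 high libraries than the low median of their sex (log2FC 2.63 ± 0.29, edgeR adjusted p = 1.9e-10). *Csf3r* had 0.58 ± 0.23 (p = 0.043), which was not called without the AXB12/PgnJ female, and *Cxcr2* had -0.61 ± 0.23 (p = 0.031). The other 3 tested neutrophil genes, *S100a9* among them, were not called. Of 15 lymphocyte genes 6 were lower and none higher (median -1.43). Without the AXB12/PgnJ female all 15 were lower (median -1.86), and with strain as a random block 13 were. *Cd3e* (-1.62) and *Cd4* (-1.61) had medians of 29.7 and 30.8 CPM in the low group and of 2.51 and 2.60 CPM in the high group. The summed lymphocyte markers ranged from 11.97 to 2978 CPM in the low and from 11.6 to 3365 CPM in the high group (medians 606 and 32.8), so libraries rich in lymphocyte RNA occurred in both. Whether a lymph node lay in the sampled fat was not tested. Leaving out the 22 libraries richest in lymphocyte, epithelial, muscle or mesothelial markers kept 27 high and 19 low ones. No lymphocyte gene was then called, at a median of -1.29, in libraries that had been chosen partly by these same genes. With those libraries left out, 6 general and 6 lipid-associated macrophage genes were higher.

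Of 15 complement genes 8 were higher and 1 lower (median 0.49). The terminal component *C6* (log2FC 1.96), the anaphylatoxin receptor *C3ar1* (1.15) and *C1qb* (0.84) were higher. Adipsin, *Cfd*, which adipocytes secrete, was lower, with medians of 1677 and 749 CPM in low and high females and of 2037 and 787 CPM in males. Every high library lay under the low median of its sex, the log2FC was -1.03 ± 0.20 (edgeR adjusted p = 4.0e-05), and the slope in the other libraries was -0.52 (p = 0.025).

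Of 13 tested adipokine genes 6 were higher and 1 lower (median 0.35). Leptin (*Lep*), the satiety hormone of adipocytes, had medians of 354 and 2483 CPM in low and high females and of 1085 and 3500 CPM in males. The ranges overlapped, with 17.9 to 2581 CPM in low and 169 to 5655 CPM in high females. The log2FC was 1.91 ± 0.30 (edgeR adjusted p = 1.1e-06), and the slope was 0.67 (p = 0.0070). *Mest*, an imprinted gene that marks expanding adipocytes, had 2.22 ± 0.38 (p = 5.9e-06), and the peptide *Apln* 0.92. Of 15 mature adipocyte genes 2 were higher and 3 lower (median 0.10), together a share near that of all genes (18.4% higher and 18.1% lower). The lipid droplet protein gene *Cidec* (0.68) was higher, and the beta-adrenergic receptor *Adrb3* (-1.17), the insulin-responsive glucose transporter *Slc2a4* (-0.50) and the triglyceride lipase *Pnpla2* (-0.33) were lower. Of 14 insulin signalling genes 4 were lower and 1, *Cav1* (0.73), was higher, together again near the share of all genes. On log2(TPM + 1) 7 mature adipocyte genes were higher and 1 lower, and 8 insulin signalling genes were higher and none lower. *Slc2a4* and *Pnpla2* were not called there, nor with *Saa3* ranked by CPM, nor with depth and mitochondrial share as terms.

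Extracellular matrix genes were the most uniform list that was higher. Of 21 genes 18 were higher and none lower (median 0.81), and 7 had a positive slope in the other 70 libraries. The collagen *Col5a2* had medians of 246 and 466 CPM in low and high females and of 281 and 528 CPM in males (log2FC 1.01 ± 0.13, edgeR adjusted p = 2.7e-08). The basement membrane collagens *Col4a1* (0.91) and *Col4a2* (1.003) and the matrix glycoprotein *Sparc* (1.07) were also higher. Of the vascular lists, 6 of 12 endothelial and 4 of 10 mural genes were higher and none lower, and of 15 progenitor genes 5 were higher. Of the 7 homeobox and related genes of depot identity none was called (edgeR, log2FC between -0.195 and -0.012).

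De novo lipogenesis was lower. Of 18 genes 12 were lower and none higher (median -0.66). In females alone 10 were lower (median -1.06) and in males alone 5 (median -0.31), and 1 of the 18 passed the edgeR test of the interaction with sex. Acetyl-CoA carboxylase (*Acaca*) lay between 201 and 2980 CPM in low females (median 1243) and between 121 and 646 CPM in high females (median 242). In males the medians were 514 and 193 CPM. The log2FC was -1.83 ± 0.21 (edgeR adjusted p = 9.4e-10), and 33 of 34 high libraries were under the low median of their sex. The elongase *Elovl6* (-2.24), ATP citrate lyase *Acly* (-1.90) and fatty acid synthase *Fasn* (-1.66) followed, and the fructose transporter *Slc2a5*, named by its size, had -3.89 ± 0.52 (p = 3.2e-08). None of the 18 had a called slope in the 70 other libraries, where *Acaca* had -0.31 (p = 0.19). With *Saa3* ranked by CPM 7 of the 18 were lower and 1 higher (median -0.34). With depth and mitochondrial share as terms 7 were lower and 2 higher (median -0.15), and on log2(TPM + 1) 8 were lower and 4 higher (median -0.32).

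The oxidative lists were lower in the high group as well. Of 39 nuclear OXPHOS genes 35 were lower and none higher (median -0.39), and of 13 mitochondrially encoded genes 12 were lower (median -0.83). In females alone 31 of the 39 nuclear genes were lower (median -0.59). In males alone 8 were (median -0.22), where 14.6% of all genes were lower. Of the 13 mitochondrially encoded genes 11 were lower in females and 10 in males. No gene of either list passed the edgeR test of the interaction with sex. Complex II *Sdhb* had medians of 145 and 87.02 CPM in low and high females and of 130.96 and 101.8 CPM in males (log2FC -0.67 ± 0.12, edgeR adjusted p = 7.9e-06). *Uqcrc2* of complex III (-0.60), *Sdha* (-0.54), *Ndufs1* of complex I (-0.48), *mt-Cytb* (-0.96) and *mt-Atp6* (-0.97) were lower too. No gene of either list had a called slope in the other libraries, where the median slopes were -0.0045 and -0.050. With *Saa3* ranked by CPM, 4 nuclear OXPHOS genes were lower and 2 higher (median -0.11), while 10 of the 13 mitochondrially encoded genes were lower (median -0.49). Ranked by TPM without mitochondrially encoded genes, 24 nuclear and 12 mitochondrially encoded genes were lower. On log2(TPM + 1) 11 nuclear genes were lower and 2 higher, and 12 mitochondrially encoded genes were lower. With depth and the mitochondrial share as terms, none of either list was lower, and 3 nuclear genes and 1 mitochondrially encoded gene were higher. That share is itself made of the mitochondrially encoded genes.

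Fatty acid oxidation had 13 of 15 genes lower and none higher (median -0.43). *Acadvl* (-0.90) and *Hadha* (-0.64) catalyse steps of the mitochondrial spiral. In females 10 of the 15 were lower and in males none, but no gene of the list differed between the sexes in the test of the interaction. Catabolism of branched-chain amino acids had 10 of 18 genes lower (median -0.24), with *Bckdha* (-0.45) and *Ivd* (-0.45) among them. With *Saa3* ranked by CPM, 2 fatty acid oxidation genes and 0 genes of branched-chain catabolism were lower. With depth and mitochondrial share as terms the medians turned to 0.17 and 0.04, with 6 and 1 genes higher and none lower. On log2(TPM + 1) 6 fatty acid oxidation genes were lower, and 3 genes of branched-chain catabolism were higher and none lower (median 0.05).

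Of 14 thermogenic genes 7 were lower and 1 higher (median -1.10). In females alone 8 were lower (median -2.03), and in males alone 2 were, at a median of -0.04. The edgeR interaction with sex was called for 3 of the 14. *Cidea*, a lipid droplet protein of beige and brown adipocytes, lay between 7.76 and 693 CPM in low females (median 76.4) and between 1.96 and 30.02 CPM in high females (median 9.42). In males the medians were 37.3 and 15.5 CPM, and 1 high male library reached 372 CPM. The log2FC was -3.67 in females (edgeR adjusted p = 6.2e-05) and -0.78 in males (p = 0.24), and the interaction passed the test (2.89, p = 0.043). *Cox8b* (-1.62), the coactivator *Ppargc1a* (-0.97) and *Cpt1b* (-1.44) were lower in the fit of both sexes together. With *Saa3* ranked by CPM 2 of the 14 were lower, and with depth and mitochondrial share as terms 2 were lower and 5 higher.

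Stress-related lists were mixed. Of 14 glucocorticoid target genes 8 were higher and 2 lower (median 0.42), with *Tsc22d3* (1.03), *Fkbp5* (0.90) and *Sgk1* (0.49) among the former, and no called slope in the other libraries. In females alone 1 of the 14 was higher and 2 lower (median 0.14), and in males alone 7 were higher and none lower (median 0.50). None of the 14 passed the edgeR test of the interaction with sex. Of 12 immediate early genes 4 were higher, led by *Atf3* (1.75) and *Fos* (0.90), with 1 higher in females alone and 4 in males alone. Of 13 genes of hypoxia and glycolysis *Hif1a* (0.48) was among 4 higher and *Pdk1* (-0.67) among 2 lower. Of 13 antioxidant genes the extracellular dismutase *Sod3* (0.82) and haem oxygenase *Hmox1* (0.81) were among 4 higher and the plasma glutathione peroxidase *Gpx3* (-1.01) among 2 lower. Of 12 genes of the unfolded protein response 4 were higher, among them the chaperone *Hspa5* (0.34), with 1 higher in females alone and 6 in males alone. Of 14 interferon response genes 1 was higher, of 10 antigen presentation genes 1 was higher and 1 lower, and of 12 proliferation genes 1 was higher. Without the AXB12/PgnJ female, 1 interferon response gene was higher and 4 were lower, and 1 antigen presentation gene was higher and 3 were lower.

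Several genes outside the lists followed *Saa3* closely. *Tph2*, the tryptophan hydroxylase known from serotonergic neurons, had medians of 0.324 and 34.3 CPM in low and high females and of 2.26 and 90.2 CPM in males. In 30 of 34 high libraries it exceeded every low library of the sex (log2FC 4.98 ± 0.47, edgeR adjusted p = 1.5e-12), and the slope in the other libraries was 1.77 (p = 1.3e-04). Gastric lipase *Lipf* (4.17 ± 0.45) had medians of 0.161 and 3.53 CPM in females and of 0.505 and 12.7 CPM in males. *Ubd*, the ubiquitin-like FAT10 (2.32), the kinase gene *Cdkl4* (2.73), coagulation factor VII *F7* (2.66), the protease inhibitors *Tfpi2* (1.58) and *Cstb* (0.86), the sodium-calcium exchanger *Slc8a1* (1.304) and the carboxypeptidase inhibitor *Lxn* (0.73) were higher. *Lxn* moved little but evenly, from 5.90 to 9.90 CPM in low females to between 10.4 and 16.1 CPM in high females, with no overlap.

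On the lower side the smallest p belonged to evenly expressed genes with small changes. *Prpsap2* (-0.38), *Parp6* (-0.32), the splicing factor *Hnrnph3* (-0.44), *Timm21* of the mitochondrial import machinery (-0.43), *Pts* of tetrahydrobiopterin synthesis (-0.44) and *Akap8l* (-0.40) were under the low median of their sex in 33 or 34 of 34 high libraries. On log2(TPM + 1), where the median of all genes was 0.17, 5 of these 6 did not pass the test, the exception being *Timm21*. Large falls were seen in *Il22ra2*, the decoy receptor for IL-22 (-3.18), the sortilin-related *Sorcs2* (-2.28) and the growth factor *Ptn* (-2.22). *Rarres1* had -2.10 ± 0.47 (edgeR adjusted p = 3.3e-04). However, 27 of 34 high libraries exceeded the low median of their sex, and low libraries reached 62.3 CPM.

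**Figure D5:**
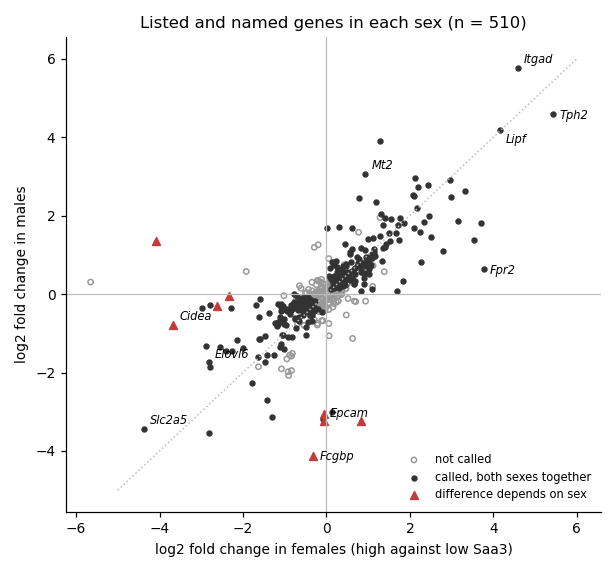
Log2FC of 510 listed or named genes in males against females (high against low *Saa3*, each sex fitted alone, dotted line at equality). Filled points are genes called with both sexes together, and 8 red triangles are genes whose difference depended on sex by the interaction test.

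Over all genes, 81 of 17528 (0.462%) had a difference between high and low *Saa3* that depended on sex in the edgeR quasi-likelihood test, 10 more positive and 71 more negative in males. Limma-voom called 0, with 255 positive and 218 negative at an unadjusted p under 0.05, against 348 and 736 by edgeR. Epithelial genes were among them. *Epcam* had log2FC -0.06 in females and -3.24 in males, with medians of 2.36 and 0.251 CPM in low and high males. Of 9 mammary epithelial genes 5 were lower over both sexes (median -1.38). In males 4 were tested and all 4 were lower, and in females none of the 9 was. With strain as a random block none of the 9 was lower over both sexes (median -0.24), and *Epcam*, *Krt19*, *Krt5*, *Krt18* and *Fcgbp* were not called. Their summed level ran from 178 to 1060 CPM in low and from 86.4 to 2434 CPM in high females, and from 0.420 to 294 CPM in low and from 0.264 to 15.6 CPM in high males.

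Markers of other tissues moved with the groups in part. Of 10 skeletal muscle genes 5 were higher and none lower (median 1.66), with *Myh1* at 2.31 and *Acta1* at 1.21, and *Myh2*, named by its size, at 2.92. In the other 70 libraries 4 muscle genes had a negative slope and none a positive one (median -2.23). Summed muscle markers ranged from 26.3 to 991 CPM in the low and from 29.7 to 3432 CPM in the high group. Without the marker-rich libraries named above 1 muscle gene was called. Of 7 tested mesothelial genes 3 were lower, of 8 Schwann cell genes 2 were lower, and of 5 tested skin genes 2 were higher and 1 lower. Their part in the other differences was not tested beyond that alternative.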

How the data were processed

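Adipose RNA of HMDP mice was sequenced as poly(A) libraries. Per the labels and methods, the authors quantified reads with kallisto 0.46.1 and summarised transcripts to genes (mm10), and deposited estimated counts and length-corrected TPM per gene. Of the estimated counts 30.3% were not whole and were rounded. Libraries were grouped on *Saa3* TPM within sex, and 3 libraries were left out. The members and gene lists were chosen with earlier results of these data known. Genes passing edgeR's low-count filter were tested with edgeR 4.0.16 (R 4.3.3, TMM scaling, quasi-likelihood, sex as covariate) at an adjusted p of 0.05. CPM of single genes uses TMM scaling as well. Summed CPM of marker lists and the *Saa3* TPM per unit of CPM use library totals instead. Limma 3.58.1, DESeq2 1.42.0, other scalings, filters, rankings and left-out libraries were alternatives. Single values were compared by permutation within sex (100000 resamples). Scripts were tested on simulated data. Named were up to 4 called genes per list with the smallest p and the 10 called genes with the smallest p or largest change in each direction with a mean of at least 1 CPM, and any acute-phase, receptor or cytokine gene. Only some of these are printed. Library totals ranged from 12057900 to 78562600 counts among the compared libraries. Whether mice of a group were housed or processed together is not given in the sources used here, so p-values measure the spread between these libraries. Promoters are from RefSeq.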

Additional observations from a re-analysis of the deposited data

Results flagged for a closer look

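The difference between high and low *Saa3* depended on sex for 5 of the named genes by the edgeR interaction test. Given as the male minus the female log2FC, it was 2.89 for *Cidea*, -3.14 for *Epcam*, -2.95 for *Krt19*, -4.94 for *Krt5* and -3.75 for *Fcgbp*. *Cidea* was lower in high-*Saa3* females, and its male log2FC did not pass the test. *Epcam*, *Krt19* and *Krt5* are epithelial genes, and summed mammary epithelial markers had a median of 5.35 CPM in low and 1.80 CPM in high males, against 524 and 550 CPM in females. Their part in these differences was not tested. With strain as a random block the difference over both sexes was not called for *Epcam*, *Krt19*, *Krt5* or *Fcgbp*. Limma-voom called 0 genes for the interaction.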

How the results depend on the processing

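The main counts of 3226 higher and 3169 lower genes moved most with the scale of the values. On log2(TPM + 1) they were 7414 and 598, on log2(TPM + 0.1) 7470 and 581, and with library totals in place of TMM 3812 and 2075. Comparing only the 26 libraries at the extremes of the ranking gave 1205 and 1034, and leaving out 22 marker-rich libraries 2058 and 2179. With strain as a random block the counts were 3241 and 3143, and in 10 fits that each left out 1 library they ranged from 3012 to 3346 and from 2961 to 3462. The interaction with sex gave 0 genes by limma-voom. *Il1b* turned to -0.14 with DESeq2, -0.085 with strain as a random block, -0.31 without marker-rich libraries and -0.15 without the AXB12/PgnJ female. With depth and mitochondrial share as terms *Hadha* turned to 0.081 and *Cpt1b* to 0.044, and with strain family *Rarres1* to 0.054. The causes were not tested. Of 120 called named genes, 61 kept direction and call in every one of 19 alternatives. Leaving out the AXB12/PgnJ female, leaving out the shallowest and deepest library, and ranking by TPM without mitochondrially encoded genes were chosen after seeing the data.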

Other observations

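The female library of AXB12/PgnJ, with the highest *Saa3* (1677 TPM), was unlike the other high libraries. Among 65 females it ranked 1 for *Cfb*, *Il1rn*, *C3* (4259 CPM), *Fpr2* and *Tlr2* (56.8 CPM), but 47 for *Hp* (199 CPM), 60 for *Lbp* (15.7 CPM) and 65 for *Cd36* (669 CPM). *Itgad* stood at 1.501 CPM and *Tph2* at 0.0763 CPM there.

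In strains whose sexes fell in opposite groups, *Hp* and *Itgad* were set beside *Saa3*. The MA/MyJ female (low, 1.40 TPM) had 156 CPM of *Hp* and 0.365 CPM of *Itgad*, and the male (high) 1012 and 60.5 CPM. The AXB19b/PgnJ female (high, 53.8 TPM) had 809 and 10.7 CPM, and the male (low, 2.83 TPM) 266 and 0.308 CPM. The I/LnJ female (high, 177 TPM) had 1585 CPM of *Hp* but 0.240 CPM of *Itgad*, and the male (low, 6.17 TPM) 717 and 0.739 CPM. The AXB12/PgnJ male (low, 4.28 TPM) had 741 CPM of *Hp* and 0.616 CPM of *Itgad*, so *Hp* was higher there than in the high female. These are single libraries, with no replicate. Within each pair sex and *Saa3* group change together and cannot be told apart. In both groups the medians of *Hp* and *Itgad* given above were higher in males than in females.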
